A study of Mus musculus with 24 samples.

Results

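Messenger RNA levels of 10 postsynaptic scaffold genes were read from RNA-seq of mouse striatum in a Huntington's disease model. The genes were Homer1, Homer2, Homer3, Shank1, Shank2, Shank3, Dlg4, Dlgap1, Dlgap2 and Dlgap3, a list set by name with earlier results of these data known. All 10 were found among the 24340 genes that the deposited tables hold in common, and all 10 passed the minimum level used in every comparison.

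At an excitatory synapse these proteins build the postsynaptic density, a protein layer beneath the receptor membrane. PSD-95, encoded by Dlg4, holds glutamate receptors and other membrane proteins at the surface, the GKAP (or SAPAP) proteins encoded by the Dlgap genes bind PSD-95, the Shank proteins bind GKAP, and the Homer proteins link Shank to group I metabotropic glutamate receptors and to calcium stores inside the spine. In the striatum most of these synapses lie on the spiny projection neurons, which receive glutamatergic input from cortex and thalamus. Mice lacking Shank3 or Dlgap3 are known for repetitive grooming and altered corticostriatal transmission.

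R6/1 mice were hemizygous for a transgene with exon 1 of human HTT and an expanded CAG repeat, on a C57BL/6J background, and their wild-type (WT) littermates served as controls. The transgene is a gene fragment, so it models a truncated huntingtin beside an intact mouse gene. Both genotypes received intraperitoneal vehicle (dimethyl sulfoxide in saline) or RGFP109, an inhibitor of the histone deacetylases HDAC1 and HDAC3, at 30 mg/kg on 5 days of each week for 3 weeks from an age of 11 to 14 weeks. Striatum was taken 18 h after the last dose, at 14 to 17 weeks. The 24 libraries fell into WT-vehicle (5 libraries), R6/1-vehicle (6), WT-RGFP109 (6) and R6/1-RGFP109 (7).

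Levels were in FPKM (fragments per kilobase of exon, scaled to the mapped fragments of the library), which corrects for gene length and library size. The deposited tables give 1 pooled value per group, the authors' value, and values per mouse were not used here, so the spread between mice is not part of what follows and no test was run. Read depth per library is unknown here, and no counting interval is given. Each group stands in 3 of the 6 pairwise tables, and its level below is the mean over them after removal of the factor by which a whole table differed. Log2 ratios were taken within the table of each pair, and a ratio formed from the group levels can differ from them by up to 0.034 on the log2 scale. A gene was called past the fold where the log2 ratio exceeded 0.5 in size (a ratio of 1.41), among genes with a mean of at least 1 FPKM over the pair. This call is a size and not a test.

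Dlg4, the PSD-95 gene, had the highest level of the 10 genes in every group. WT-vehicle had 303.2 FPKM and WT-RGFP109 278.5, and the R6/1 groups had 199.5 with vehicle and 196.7 with RGFP109. Both R6/1 values lay below both WT values, and the WT-vehicle value stood at percentile 99.1 of all genes with a level above 0. Its log2 ratio of R6/1 to WT was -0.64 in vehicle and -0.53 under RGFP109, past the fold in both.

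Dlgap3 encodes SAPAP3, the GKAP family member that is abundant in striatum. Its level was 154.9 FPKM in WT-vehicle against 83.4 in R6/1-vehicle, and 132.1 in WT-RGFP109 against 80.2 in R6/1-RGFP109. Taken within the table of each pair, the R6/1 value was 0.526 of the WT value in vehicle (log2 ratio -0.93). Under RGFP109 it was 0.593 of the WT value (log2 ratio -0.75). Dlgap1, which encodes GKAP itself, measured 57.2, 41.6, 56.9 and 45.2 FPKM in WT-vehicle, R6/1-vehicle, WT-RGFP109 and R6/1-RGFP109, with log2 genotype ratios of -0.49 and -0.37 that lay inside the fold. Dlgap2, the least abundant of the family here, measured 14.6, 12.5, 14.6 and 12.1 FPKM in that order. Its log2 genotype ratios, -0.26 and -0.30, placed it among the smaller differences of the set.

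Shank3, a Shank family gene linked to autism and Phelan-McDermid syndrome, had the most negative genotype ratio of the 10 genes in both treatments. Vehicle-treated mice had 53.6 FPKM in WT and 27.3 in R6/1, and RGFP109-treated mice had 48.3 and 27.7. Taken within the table of each pair, the R6/1 value was 0.498 of WT in vehicle and 0.559 of WT under RGFP109. The log2 ratios were -1.005 and -0.84. In vehicle this ratio stood at percentile 2.7 of the 13505 genes compared.

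Shank2 did not share the lower R6/1 level of its family. It measured 18.6 FPKM in WT-vehicle against 20.1 in R6/1-vehicle, and 18.7 in WT-RGFP109 against 20.4 in R6/1-RGFP109. It was the 1 gene of the 10 with a higher level in R6/1 than in WT. Its log2 ratios were 0.08 in vehicle and 0.10 under RGFP109, both far inside the fold. They stood at percentiles 63.8 and 65.6 of the genes compared, between the quartiles. Shank1, a Shank gene of forebrain neurons, measured 34.4, 24.9, 36.0 and 26.8 FPKM across WT-vehicle, R6/1-vehicle, WT-RGFP109 and R6/1-RGFP109. Its log2 ratio in vehicle, -0.498, and that of Dlgap1, -0.493, lay just inside the fold, and Dlg4 at -0.64 was the nearest gene past it. Under RGFP109 the Shank1 ratio was -0.46.

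Homer1 encodes both the long Homer proteins that link Shank to receptors and the short activity-induced form Homer1a, which the gene-level values cannot separate. The WT groups had 27.7 FPKM with vehicle and 29.8 with RGFP109, and the R6/1 groups had 17.9 and 17.4. The log2 genotype ratio was -0.66 in vehicle and -0.81 under RGFP109, so that Homer1 was past the fold in both. Homer2 and Homer3, its paralogs, had low levels in striatum. Homer2 measured 3.82, 2.99, 3.94 and 3.29 FPKM across WT-vehicle, R6/1-vehicle, WT-RGFP109 and R6/1-RGFP109 (log2 genotype ratios -0.39 and -0.29), and Homer3 measured 5.15, 4.30, 4.90 and 4.46 FPKM in that order (-0.29 and -0.17). The Homer3 value is uncertain, because 25.4% of its exon bases in the GENCODE annotation lie opposite exons of Ddx49 and whether strand was used in counting is not given in the sources used here.

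**Figure D1:**
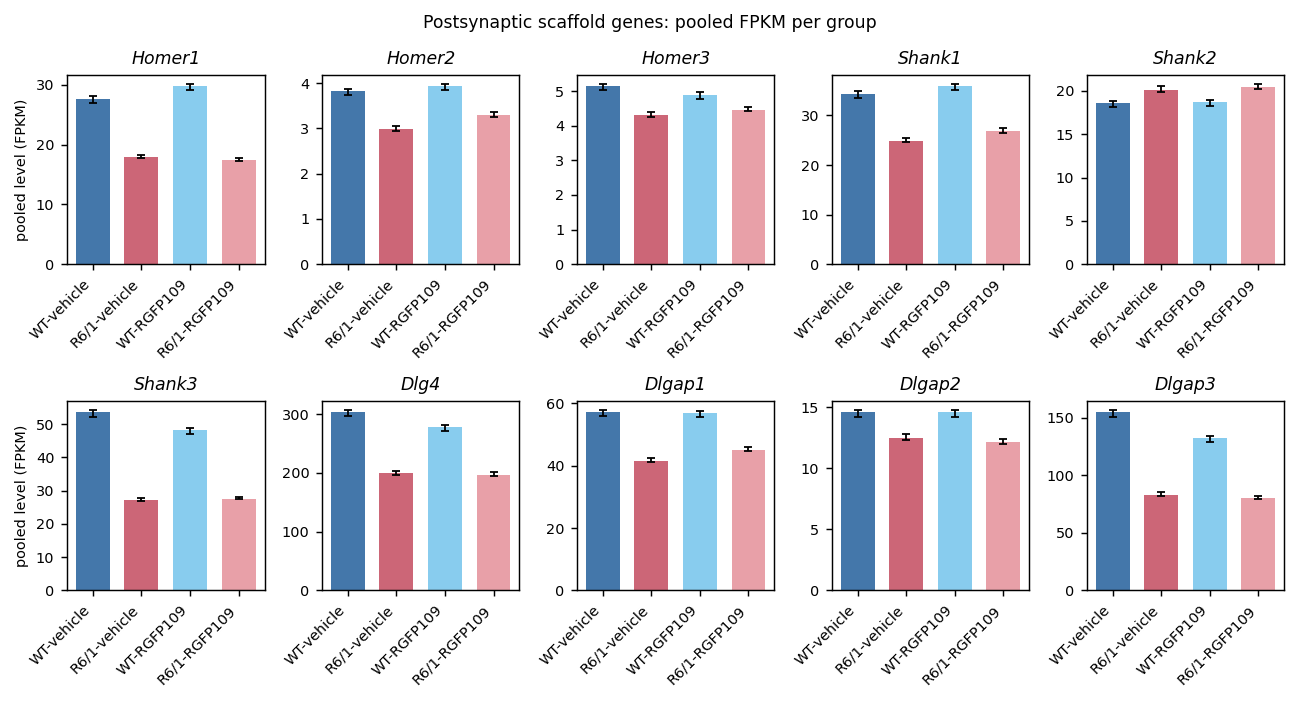
Pooled FPKM of each of the 10 genes (vertical axes from 0, a scale of its own for each gene) in WT-vehicle, R6/1-vehicle, WT-RGFP109 and R6/1-RGFP109. Bars are the mean over the 3 tables that hold a group and error bars the lowest and highest deposited value in those tables, which is processing error and not spread between mice. The R6/1 bars lie below the WT bars in 9 panels and above them in the Shank2 panel.

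The order of levels was nearly the same in every group. Dlg4 came first, followed by Dlgap3, Dlgap1, Shank3 and Shank1, and Dlgap2, Homer3 and Homer2 came last. Homer1 and Shank2 changed places between them. Homer1 ranked 6 and Shank2 ranked 7 in both WT groups (27.7 against 18.6 FPKM in WT-vehicle), and in both R6/1 groups Shank2 ranked 6 and Homer1 ranked 7 (20.1 against 17.9 FPKM in R6/1-vehicle). Dlgap1 and Shank3 were neighbours in WT-vehicle, at 57.2 and 53.6 FPKM, and stood further apart in R6/1-vehicle, at 41.6 and 27.3 FPKM. Whether neighbours in this order differ beyond the spread between mice was not tested.

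In vehicle-treated mice, which address the effect of the transgene alone, 4 of the 10 genes were lower in R6/1 past the fold: Shank3, Dlgap3, Homer1 and Dlg4. The share of all 13505 genes lower past the fold was 10.1%. No scaffold gene was higher past the fold, against 3.47% of all genes. The median log2 ratio of the 10 genes was -0.50, with a range from -1.005 (Shank3) to 0.08 (Shank2), while the median of all genes was -0.0077 with quartiles of -0.22 and 0.16. At a fold of 0.26, 8 of the 10 were lower past it, beside 22% of all genes, and at a fold of 1 only Shank3 was, beside 2.76%. Shank3 passed that fold narrowly, at -1.005. It lay inside that fold when centred on all genes (-0.997), averaged over 3 tables (-0.972) or with 1 FPKM added (-0.979). Each family held a gene past the fold, and within the Homer, Shank and Dlgap families that gene was the 1 with the highest WT level.

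Under RGFP109, the same comparison used separate mice in both genotypes. The same 4 genes were lower past the fold, beside 8.46% of all 13478 genes, and 0 were higher, beside 3% of all genes. At a fold of 0.26, 8 were lower, beside 18.7% of all genes, and at a fold of 1 there were 0, beside 2.08%. The median log2 ratio of the 10 genes was -0.41 and that of all genes was 0.010. Shank3 remained the lowest, Homer1 stood next to it and Dlgap3 after Homer1. Over all genes, 851 were lower past the fold in both genotype comparisons, which is 66.2% of the 1285 called in vehicle and 78.1% of the 1090 called under RGFP109 among the 13326 genes that could be compared in both.

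In the 4 tables that set an R6/1 group against a WT group, 9 of the 10 genes had the R6/1 value lower every time, and Shank2 had it higher every time. The share of all genes with R6/1 lower in all 4 tables was 37.8%, and the share with R6/1 higher in all 4 was 39%. These tables share groups, so the 4 directions are not independent of each other.

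**Figure D2:**
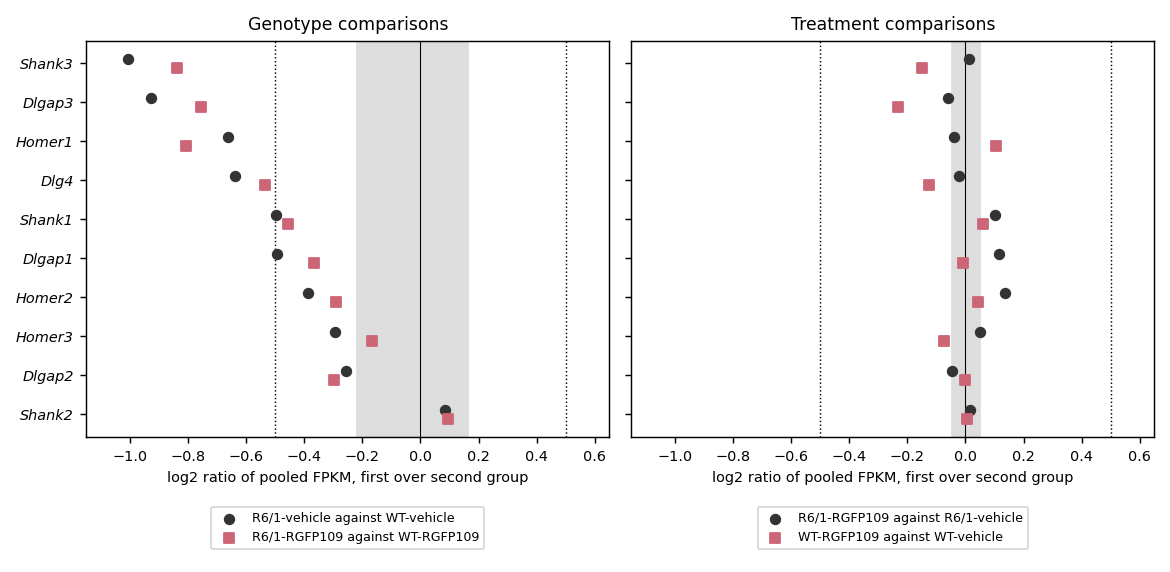
Log2 ratios of pooled FPKM for each gene, with the genotype comparisons on the left and the treatment comparisons on the right (horizontal axes, log2). Dotted lines mark the fold of 0.5 in either direction, and the grey band spans the quartiles of all genes in the comparison drawn with circles. Shank3, Dlgap3, Homer1 and Dlg4 lie left of the lower fold line in both genotype comparisons, and no gene passes either line in the treatment comparisons.

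The 4 genes past the fold sit on different chromosomes. In the coordinates of the files (mm10), Homer1 spans chr13:93304495-93405129, Shank3 chr15:89499857-89560260, Dlg4 chr11:70018605-70045531 and Dlgap3 chr4:127169204-127237022, all on the plus strand. The other genes are Homer2 (chr7:81600481-81706925), Homer3 (chr8:70282999-70302452), Shank1 (chr7:44310264-44358353), Shank2 (chr7:143948405-144470935), Dlgap1 (chr17:70424792-70821413) and Dlgap2 (chr8:14095875-14847686). These are the deposited spans, which can differ from the annotated gene. In GENCODE, Homer3 ends earlier, at 70294361, and Shank2 has a narrower span, chr7:144001928-144424494. The 250 bases before an annotated RefSeq start (build GRCm38.p6) are shown for each, because these 4 genes had the largest genotype ratios in the same direction. Capitals mark matches on either strand to TGACG (the core of a cyclic AMP response element, CRE), GGGCGG (a GC box) or GCGTGGGCG (an EGR1 motif).
Homer1, chr13:93303507-93303756: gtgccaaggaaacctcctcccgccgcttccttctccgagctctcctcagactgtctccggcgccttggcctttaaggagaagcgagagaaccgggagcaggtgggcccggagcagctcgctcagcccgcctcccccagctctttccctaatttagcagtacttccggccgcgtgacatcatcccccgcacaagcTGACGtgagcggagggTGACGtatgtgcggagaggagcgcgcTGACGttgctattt
Shank3, chr15:89499358-89499607: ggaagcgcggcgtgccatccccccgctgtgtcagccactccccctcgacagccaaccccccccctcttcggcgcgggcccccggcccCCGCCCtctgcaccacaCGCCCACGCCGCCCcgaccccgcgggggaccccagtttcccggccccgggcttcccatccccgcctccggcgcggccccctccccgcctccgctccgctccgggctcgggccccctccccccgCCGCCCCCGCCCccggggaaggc
Dlg4, chr11:70018355-70018604: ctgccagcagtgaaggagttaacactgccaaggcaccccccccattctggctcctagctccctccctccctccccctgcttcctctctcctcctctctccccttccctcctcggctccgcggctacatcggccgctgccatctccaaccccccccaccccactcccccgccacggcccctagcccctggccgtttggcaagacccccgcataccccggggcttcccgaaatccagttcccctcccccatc
Dlgap3, chr4:127172630-127172879: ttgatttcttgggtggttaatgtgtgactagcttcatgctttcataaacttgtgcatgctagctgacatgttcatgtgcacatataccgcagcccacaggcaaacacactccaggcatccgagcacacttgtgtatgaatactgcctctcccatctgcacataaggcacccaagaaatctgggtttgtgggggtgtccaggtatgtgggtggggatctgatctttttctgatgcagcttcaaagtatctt

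The windows differ widely in composition. The GC content was 82.4% for Shank3, 68% for Dlg4, 62.4% for Homer1 and 46.8% for Dlgap3, where the median over 32851 such windows was 52.4%. They held 31, 11, 21 and 2 CpG dinucleotides in that order, against a median of 6. The Homer1 window holds 3 copies of TGACG, a motif found in 17.8% of all windows, and none of the complete CRE letters TGACGTCA (1.55% of windows). The Shank3 window holds GC boxes (32.7% of windows) and an EGR1 motif (0.536% of windows) that overlaps 1 of them. The Dlg4 and Dlgap3 windows printed hold none of these letters, nor the TATA box letters TATAAA (12.4% of windows). Dlg4 has 3 annotated windows and Homer1 has 2, of which the one at or nearest the start in the files is printed. The Dlg4 window at chr11:70023732-70023981 holds TGACG and a GC box, and the other Dlg4 and Homer1 windows hold none of the motifs. The Dlg4 start coincides with the start of the gene in the files, the Homer1 and Shank3 starts lie 738 and 249 bases upstream of it, and the Dlgap3 start lies 3676 bases downstream, within the gene. A match is a description of the letters and not a measured binding site. RefSeq windows were matched for 7 of the 10 genes, and Shank1, Shank2 and Dlgap2 were those without one.

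RGFP109 given to R6/1 mice addresses whether the drug shifts these levels in the disease model. No scaffold gene passed the fold in either direction, beside 1.05% of all 13461 genes lower and 0.936% higher. The log2 ratios of R6/1-RGFP109 to R6/1-vehicle ran from -0.06 for Dlgap3 to 0.14 for Homer2, with a median of 0.015 against 0.0031 for all genes. Shank3 differed by 0.01, Dlg4 by -0.02 and Homer1 by -0.04, so the 4 genes lowest in R6/1 against WT had treated and untreated R6/1 levels that differed by no more than 0.06 in size. Dlgap1 (0.11) and Shank1 (0.10) had the next highest values after Homer2. Across all genes the quartiles were -0.0466 and 0.0516, so these 3 genes lay above the upper one, and Dlgap3 (-0.0599) and Dlgap2 (-0.0475) lay below the lower one.

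In WT mice the drug comparison also placed 0 of the 10 genes past the fold, beside 1.83% of all 13464 genes lower and 1.04% higher. Dlgap3, Shank3 and Dlg4 had the most negative ratios of the set. Dlgap3 had a log2 ratio of WT-RGFP109 to WT-vehicle of -0.23, at percentile 6.83 of all genes, Shank3 had -0.15 and Dlg4 -0.12. Homer1 had the highest, 0.10. Shank2, Dlgap1 and Dlgap2 measured 0.01, -0.01 and -0.00.

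The treatment ratio in R6/1 minus that in WT is also the amount by which the genotype ratio differs between treatments, up to scaling. Over the 10 genes its median was 0.098, with a range from -0.15 for Homer1 to 0.17 for Dlgap3. Shank3 had a difference of 0.16 and Dlg4 of 0.10. Over 13164 genes the median was 0.0057 with quartiles of -0.078 and 0.092. Among them the 10 genes stood between percentile 12.8 (Homer1) and percentile 87.1 (Dlgap3). Shank1 (0.04), Shank2 (0.01) and Dlgap2 (-0.04) lay inside the quartiles. For Dlgap3, Shank3 and Dlg4 the smaller genotype gap under RGFP109 went with a lower WT-RGFP109 level, since the R6/1 levels were nearly equal: 83.4 and 80.2 FPKM for Dlgap3, 27.3 and 27.7 for Shank3. For Homer1 the genotype gap was wider under RGFP109, with 29.8 FPKM in WT-RGFP109 against 27.7 in WT-vehicle. These differences were not set against the spread between mice.

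Because FPKM is corrected for length, levels can be added within a family. The 3 Homer genes summed to 36.7 FPKM in WT-vehicle and 25.2 in R6/1-vehicle, the 3 Shank genes to 106.6 and 72.4, and Dlgap1, Dlgap2 and Dlgap3 to 226.6 and 137.5. The change from WT to R6/1 in vehicle was -31.3% for Homer, -32.1% for Shank, -34.2% for Dlg4 and -39.3% for the 3 Dlgap genes. Under RGFP109 the changes were -34.8%, -27.2%, -29.4% and -32.5% in the same order. These figures depend on the genes counted: with the relatives outside the set added, a choice made after the values were seen, the vehicle change was -23.8% for Dlg1 to Dlg4 and -33.7% for Dlgap1 to Dlgap4. All 10 genes summed to 673.1 FPKM in WT-vehicle against 434.5 in R6/1-vehicle, and to 623.7 in WT-RGFP109 against 434.3 in R6/1-RGFP109. The summed level changed with the drug by -7.34% in WT and by -0.056% in R6/1.

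Within the families the make-up differed between genotypes. Shank3 made up 50.3% of the summed Shank level in WT-vehicle and 37.7% in R6/1-vehicle, while Shank2 made up 17.4% and 27.8%. Under RGFP109 the Shank3 share was 46.9% in WT and 36.9% in R6/1, and the Shank2 share was 18.1% and 27.3%. The Shank1 share moved less, from 32.3% to 34.4% in vehicle. The level of Shank3 was 2.88 times that of Shank2 in WT-vehicle and 1.36 times in R6/1-vehicle. Over the 4 GKAP genes, Dlgap4 included, Dlgap3 made up 52.9% of the sum in WT-vehicle and 43.0% in R6/1-vehicle, Dlgap1 made up 19.5% and 21.4%, and Dlgap4 22.6% and 29.1%. Homer1 made up 75.5% of the Homer sum in WT-vehicle against 71.1% in R6/1-vehicle, and 77.1% in WT-RGFP109 against 69.2% in R6/1-RGFP109.

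**Figure D3:**
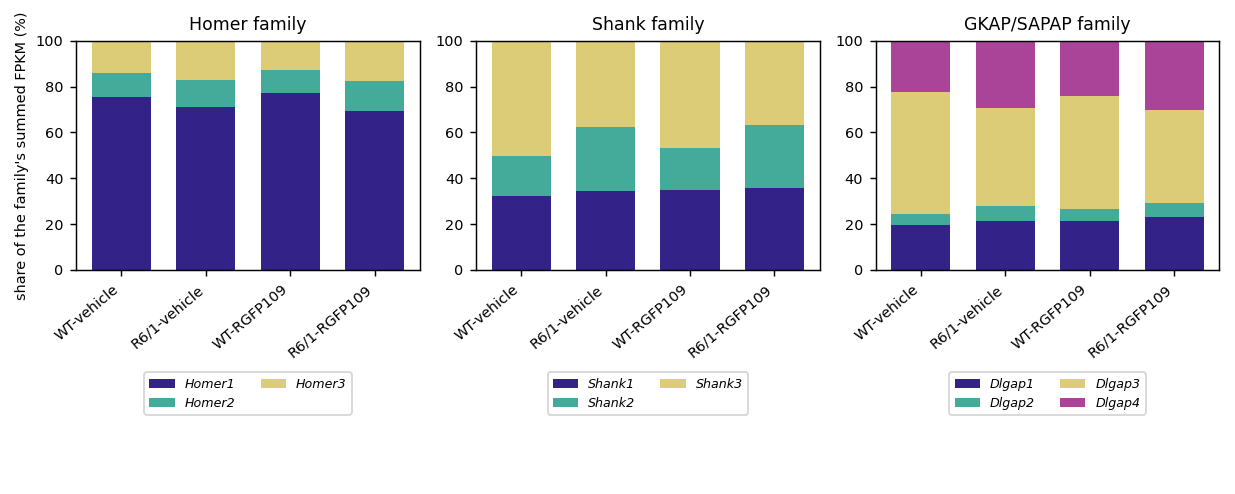
Share of each family's summed FPKM taken by each gene (vertical axis, percent, stacked from 0 to 100) in the 4 groups, for the Homer, Shank and GKAP families, with Dlgap4 included in the last. The Shank2 segment is 17.4% and 18.1% in the WT groups and 27.8% and 27.3% in the R6/1 groups, and the Dlgap3 segment is 52.9% and 49.2% in the WT groups and 43.0% and 40.8% in the R6/1 groups.

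Genes that work beside the scaffold were read from lists. In the lists and markers below, counts stand beside 10.1% of all genes lower past the fold in vehicle and 8.46% under RGFP109. The shares higher past it were 3.47% and 3%. The remaining members of the PSD-95 and GKAP families (Dlg1, Dlg2, Dlg3 and Dlgap4) gave 0 of 4 past the fold in either genotype comparison, with medians of -0.14 and -0.12. Dlg2, which encodes PSD-93, the nearest relative of PSD-95, measured 73.9 FPKM in WT-vehicle and 61.7 in R6/1-vehicle (log2 ratio -0.29). Dlgap4, the fourth GKAP gene, had a ratio of -0.26. Dlg1 (SAP97) and Dlg3 (SAP102) had ratios of -0.02 and -0.01 in vehicle and -0.07 and -0.01 under RGFP109. Dlg4 and Dlgap3, at -0.64 and -0.93 in vehicle, had lower ratios than each of these 4 relatives.

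Among 17 genes for partners of PSD-95, 3 were lower past the fold in vehicle, beside 10.1% of all genes, and 2 under RGFP109, beside 8.46%. In either comparison 0 were higher. The median log2 ratios were -0.10 and -0.10. Kalrn, which encodes kalirin, a regulator of dendritic spine shape, measured 61.4 FPKM in WT-vehicle and 33.0 in R6/1-vehicle (-0.93), and -0.76 under RGFP109. Nos1, the neuronal nitric oxide synthase tethered to PSD-95, had ratios of -0.90 and -1.001. Zdhhc2, which palmitoylates PSD-95, and Nlgn1, the neuroligin of excitatory synapses, were at the other end of the list, with 0.32 and 0.17 in vehicle and 0.09 and -0.09 under RGFP109.

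Shank and Homer partners gave 1 gene of 8 each past the fold, lower, in both genotype comparisons. A count of 1 in 8 is near the share of all genes, 10.1% in vehicle and 8.46% under RGFP109. Their medians in vehicle and under RGFP109 were -0.05 and -0.13 for Shank partners and -0.09 and -0.26 for Homer partners. Baiap2 (IRSp53), an actin regulator that binds Shank and PSD-95, measured 209.3 FPKM in WT-vehicle and 139.5 in R6/1-vehicle, with log2 ratios of -0.62 and -0.69. Sipa1l1 (SPAR) had -0.37 and -0.48, and Cttn (cortactin), whose product binds Shank, had 0.17 and 0.21. Itpr1, the inositol trisphosphate receptor bound by Homer, measured 113.5 FPKM in WT-vehicle and 65.1 in R6/1-vehicle, with ratios of -0.83 and -0.78. Ryr3, a ryanodine receptor, had -0.34 and -0.32, Trpc1, a cation channel, had 0.30 and 0.19, and Dnm3, a dynamin bound by Homer, had 0.19 and -0.05. Lrrc7 (densin-180) measured 0.09 and -0.04.

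Of 13 other excitatory scaffold and postsynaptic density genes, 3 were lower past the fold in vehicle and 4 under RGFP109, with medians of -0.08 and -0.07. Arc, an activity-induced gene whose product acts at the postsynaptic density, measured 74.3, 27.0, 57.5 and 25.9 FPKM in WT-vehicle, R6/1-vehicle, WT-RGFP109 and R6/1-RGFP109 (log2 genotype ratios -1.49 and -1.18). Nrgn, the calmodulin-binding neurogranin, had -0.96 and -0.62. Magi3 and Grip1, further PDZ scaffold genes, had 0.23 and 0.35 in vehicle and -0.07 and 0.13 under RGFP109. Among 5 scaffold genes of inhibitory synapses, 1 was lower past the fold in each genotype comparison, and the medians were -0.09 and -0.15. With 5 genes a count of 1 cannot be told from the share of all genes. That gene was Mdga1, a neuroligin-binding protein gene, at -0.74 and -1.23. Gphn, which encodes gephyrin, the core inhibitory scaffold, had 0.01 and -0.11, Nlgn2 had -0.01 and 0.00, and Iqsec3 had -0.10 and -0.39. In both treatment comparisons 0 genes of these 6 lists passed the fold. The shares of all genes lower and higher past it were 1.05% and 0.936% in R6/1. In WT they were 1.83% and 1.04%.

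Cell type markers moved with genotype too, and in bulk tissue fewer cells of a type and less RNA per cell cannot be told apart. Of 11 striatal projection neuron markers, 8 were lower past the fold in vehicle (median -1.25) and 9 under RGFP109 (median -1.33). Their summed level was 3383 FPKM in WT-vehicle against 1360 in R6/1-vehicle, and 3265 in WT-RGFP109 against 1223 in R6/1-RGFP109. Pan-neuronal genes gave 0 of 10 past the fold in vehicle and 1 lower under RGFP109, with medians of -0.15 and -0.28. The medians of the scaffold genes, -0.50 and -0.41, lay between these 2 lists.

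Neocortical neuron markers, 8 genes that mark tissue beside the striatum, gave 5 lower past the fold in vehicle (median -0.65) and 1 under RGFP109 (median -0.19). In the R6/1 treatment comparison 3 of them were higher past the fold (median 0.37), beside 0.936% of all genes. They summed to 414.8 FPKM in WT-vehicle against 251.9 in R6/1-vehicle, and to 398.7 in WT-RGFP109 against 298.4 in R6/1-RGFP109. Oligodendrocyte markers gave 4 of 6 lower in vehicle (median -0.67) and 0 of 6 under RGFP109 (-0.18), and their median in the WT treatment comparison was -0.37. Choroid plexus markers, from tissue that lies within the ventricle, summed to 43.1, 25.2, 15.2 and 9.46 FPKM across WT-vehicle, R6/1-vehicle, WT-RGFP109 and R6/1-RGFP109. In the genotype comparisons 5 of 6 of them were lower past the fold in vehicle and 3 of the 4 that passed the minimum under RGFP109, and in the treatment comparisons all that passed it were lower past the fold, 5 in R6/1 and 6 in WT. Astrocyte markers had genotype medians of -0.36 and -0.43, microglia markers -0.28 and -0.27 and endothelial markers -0.30 and -0.22. No marker of any list was at 0 in any group. The part of these differences in tissue make-up in the scaffold gene values was not tested.

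**Figure D4:**
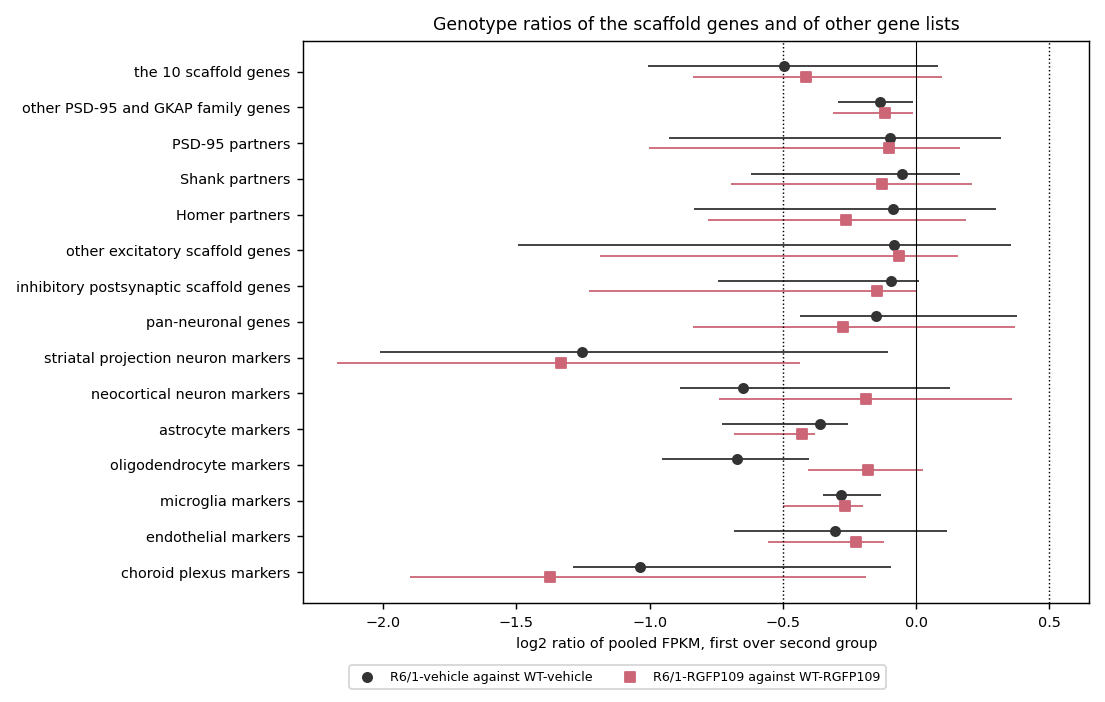
Median log2 genotype ratio (symbols) and range from the lowest to the highest gene (lines), among genes that passed the 1 FPKM minimum, for the 10 scaffold genes, their partner lists and cell type markers, in vehicle (circles) and under RGFP109 (squares). Horizontal axis, log2 ratio of R6/1 to WT pooled FPKM, with dotted lines at the fold of 0.5. The scaffold genes have medians of -0.50 and -0.41, the partner lists have medians nearer 0, and the striatal projection neuron markers have medians of -1.25 and -1.33.

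The genes nearest in pattern to Shank3, Dlgap3 and Homer1 were found by the distance between centred log2 levels over the 4 groups, among 13432 genes. Nearest to Shank3 were Inppl1, Nrep and Krt9, at distances of 0.022 to 0.027. Inppl1, a lipid phosphatase gene, measured 11.7, 5.95, 10.6 and 6.13 FPKM across WT-vehicle, R6/1-vehicle, WT-RGFP109 and R6/1-RGFP109. Nearest to Dlgap3 were Car15, Synpo2 and Gsta3, at 0.022 to 0.033, each with a WT-vehicle level of at most 5.30 FPKM. Nearest to Homer1 were Actl10, Susd2 and Strn, at 0.023 to 0.037. Strn, which encodes striatin, a calmodulin-binding scaffold of neurons, measured 28.6, 18.0, 30.0 and 17.4 FPKM in the same order, close to the Homer1 levels themselves. With 4 points a short distance is a description only.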

How the data were processed

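Total RNA of striatum was sequenced from 24 mice (TruSeq RNA libraries, single-end reads). The authors aligned reads with STAR 2.5.0b to mm10 RefSeq transcripts and deposited 6 Cuffdiff (Cufflinks 2.2.1) tables, 1 per pair of groups, with 1 pooled FPKM value per gene and group. The same tables hold the authors' log2 fold changes, test statistics, p-values and q-values, which were not used. Samples were grouped by genotype and treatment labels.

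Log2 ratios were computed within each pair's table from the FPKM values, without a pseudocount, for genes with a mean of at least 1 FPKM. Group levels were averaged over 3 tables after dividing out the group's own median ratio in each table. Past the fold means a log2 ratio above 0.5 in size. Values per library were not used, so no test was run, and depth per library is unknown. The arithmetic was checked on simulated data without noise. Both groups of a simulated table shared 1 factor, unlike the data, so the check covers neither spread nor that scaling. Python 3.11.15, numpy 2.4.6 and pandas 2.3.3 were used.

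The 10 genes, the gene lists and the markers were chosen with earlier results of these data known. Named from each partner list were the 2 highest and 2 lowest genes by vehicle genotype ratio, and for the 3 scaffold genes with the largest mean genotype ratio the 3 nearest in pattern. Promoter windows came from RefSeq (GRCm38.p6) and exon overlaps from GENCODE. Alternatives were scaling, the table used, a pseudocount, the minimum level and the fold.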

Additional observations from a re-analysis of the deposited data

How the results depend on the processing

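With the fold set at a log2 ratio of 0.26, 8 of the 10 scaffold genes were past it in the vehicle genotype comparison and 8 in that under RGFP109, against 22% and 18.7% of all genes lower past it, and with the fold at 1 the counts were 1 and 0, against 2.76% and 2.08%. The count of 4 in each rests on the fold chosen, and Shank1 and Dlgap1 lay just inside it in vehicle. Dlg4 lay just past it under RGFP109, at -0.535, and at -0.502 when averaged over 3 tables. In both treatment comparisons the count stayed at 0 under every alternative tried. Centring on all genes, averaging over 3 tables or adding 1 FPKM moved each of the 120 recomputed gene ratios by less than 0.1 on the log2 scale, at most 0.089 for Homer2, and no gene crossed the fold. 1 ratio near 0 in the WT treatment comparison turned sign when centred. With no minimum level, the share of all genes past the fold in either direction was 23.9% and 22.2% in the genotype comparisons (13.5% and 11.5% with it) and 11.4% and 13.2% in the treatment comparisons of R6/1 and WT (1.98% and 2.87% with it). Leaving out each replicate in turn was not run, because the tables used hold only pooled values. No paired fit was run, since no result here comes from a test. Adding Dlg1 to Dlg3 and Dlgap4 to the family sums, an alternative chosen after seeing the data, moved the change from WT to R6/1 in vehicle and under RGFP109 from -34.2% and -29.4% to -23.8% and -20.7% for the PSD-95 family and from -39.3% and -32.5% to -33.7% and -26.7% for the GKAP family.

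Pooled values limit every statement to the size of a difference. How far single mice vary, whether sequencing pools differ and what depth stands behind low genes such as Homer2 and Homer3 could not be read from them. FPKM is a relative measure, so a large difference in abundant genes can shift the rest. The scaling of a group also varied with the pair, with factors for WT-vehicle from 0.976 to 1.013.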
